A study of Homo sapiens with 12 samples.

Results

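Poly(A) RNA of ΔLEO1 fibroblasts was compared with that of wild-type fibroblasts, both grown in medium with 10% serum. The comparison rests on 6 of the 12 libraries of the study: the wild-type libraries numbered 1, 2 and 3 and the ΔLEO1 libraries numbered 4, 5 and 6. The other 6 libraries, of the same cells after 10 days in 0.1% serum, entered the choice of tested genes and the estimate of the spread. They are also used to look at each change a second time. BJ-5ta, the parental line, is a human foreskin fibroblast line immortalized with telomerase, which all groups share. The ΔLEO1 cells are a single clone in which exons 1 and 2 of LEO1 were targeted with CRISPR/Cas9 and the LEO1 protein was no longer seen by Western blot, so a difference between the genotypes cannot be told apart from a difference between this clone and the parental population. Nothing in the sources used here says that the 3 libraries came from separate cultures, so the p-values measure the spread between these libraries, which may be technical. All genes with more than 1 CPM (gene counts scaled to a total of 1000000 per library) in 3 or more of the 12 libraries were examined. These were 13236 of the 60671 genes in the count table.

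LEO1 belongs to the PAF1 complex (PAF1C), together with PAF1, CTR9, CDC73, RTF1 and, in human cells, SKIC8 (also called WDR61). PAF1C travels with RNA polymerase II, assists elongation and RNA processing, and is needed for histone marks that are laid down during transcription. In fission yeast, Leo1 also limits the spread of heterochromatin marked by methylation of histone H3 lysine 9. Fibroblasts in full serum divide and secrete collagens, matrix glycoproteins, growth factors and cytokines, and the genes below are grouped by these roles.

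The 6 libraries held 36472259 to 45315560 gene counts each. ERCC transcripts, synthetic RNAs added in a fixed mix, took 0.785%, 0.925% and 1.45% of the counts in the wild-type libraries and 0.625%, 0.838% and 0.932% in the ΔLEO1 libraries. Levels are given below as ERCC-scaled counts, which are gene counts per 1000 ERCC counts after a TMM correction of the ERCC totals, in the library order 1, 2, 3 for wild type and 4, 5, 6 for ΔLEO1. In each group the library with the highest number stood apart. The chi-square per gene was 3.04 between wild-type libraries 1 and 2 but 99.95 and 96.9 between these and library 3, and 5.93 between ΔLEO1 libraries 4 and 5 but 66.2 and 84.8 between these and library 6. Library 3 also had the largest share of ERCC counts. Mitochondrially encoded transcripts took 2.15% ± 0.106 of the gene counts in wild type and 2.85% ± 0.149 in ΔLEO1 (SD, n = 3 each; exact two-sided permutation test, p = 0.1, the smallest p that 3 libraries against 3 allow).

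The targeted gene was nearly lost from the RNA. LEO1 (ENSG00000166477, minus strand, chr15:51938025-51971806 of GRCh38) had 851, 935 and 915 counts in the wild-type libraries and 53, 36 and 55 in the ΔLEO1 libraries. These correspond to 23.3, 23.9 and 23.3 CPM against 1.37, 0.794 and 1.24 CPM, and to 2.94, 2.51 and 1.62 against 0.216, 0.0926 and 0.131 ERCC-scaled counts. The genotypes did not overlap on either scale, which in CPM was so for 59.4% of all tested genes (29.8% higher and 29.6% lower in ΔLEO1). The log2 fold change of ΔLEO1 over wild type, called log2 ratio from here on and given alone in brackets where no other quantity is named, was −4.02 (SE 0.55, adjusted p = 2.16e-11), and it was −4.38 to −3.76 when single libraries were left out. MAPK6 and TMOD3 overlap LEO1 on the opposite strand and the strand setting of the counting is not given in the sources used here, so some of the remaining counts could be theirs. Their own log2 fold changes were 0.52 and 0.61, which did not pass the test (adjusted p = 0.573 and 0.509).

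The other subunits of the complex were not lower. CTR9, the scaffold of PAF1C, had 7.76, 6.29 and 4.40 ERCC-scaled counts in wild type and 14.7, 10.6 and 10.0 in ΔLEO1. These groups did not overlap, yet the log2 ratio of 0.94 did not pass the test (SE 0.45, adjusted p = 0.251). When libraries were scaled by TMM on the genes instead, which sets a gene against the others of its library, CTR9 rose by 0.59 (adjusted p = 7.53e-08) and SKIC8 by 0.29 (adjusted p = 0.0266), and the other 3 were not called. The log2 fold changes of SKIC8, CDC73, RTF1 and PAF1 were 0.63, 0.48, 0.46 and 0.45, with adjusted p-values from 0.505 to 0.622. Each of these values lies above the median of all genes, which was 0.35. Of the 12 tested genes within 1 Mb of LEO1, only LEO1 and TMOD2, which encodes an actin capping protein of the tropomodulin family, passed the test. TMOD2, named after its value was seen, fell by 2.36 on the log2 scale (adjusted p = 3.43e-04) in 10% serum and had a value of 0.15 in 0.1% serum (adjusted p = 0.927).

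**Figure D1:**
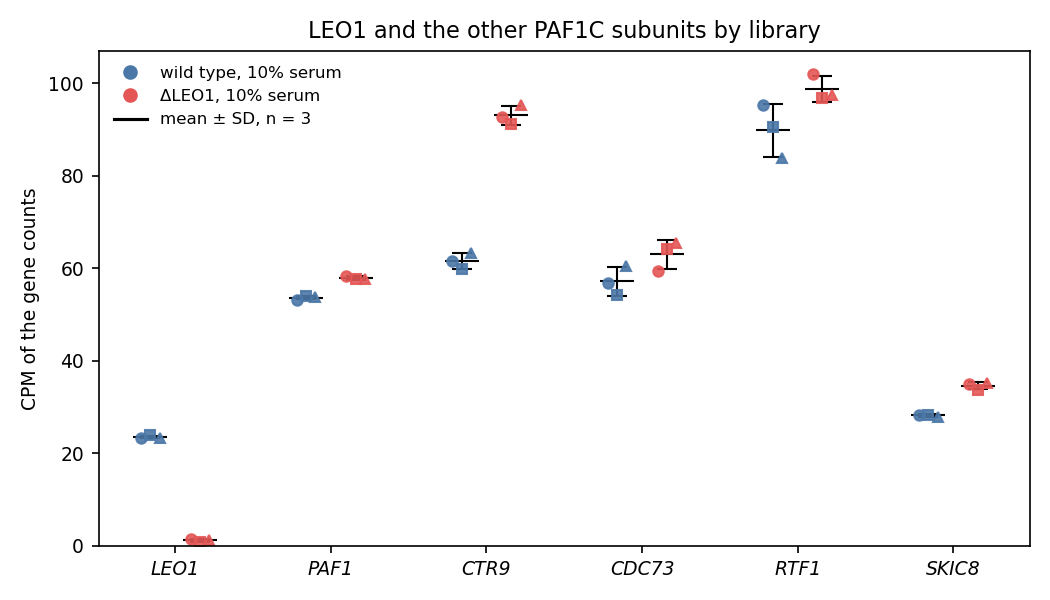
CPM of the gene counts (vertical axis, from 0) for LEO1 and the other PAF1C subunits in the 3 wild-type libraries (blue) and the 3 ΔLEO1 libraries (red) of 10% serum; circle, square and triangle are the libraries in order of number, and the black lines give the mean ± SD (n = 3). LEO1 lies at 23.3 to 23.9 CPM in wild type and at 0.794 to 1.37 CPM in ΔLEO1, and the ΔLEO1 libraries of CTR9 (91.1 to 95.3 CPM) lie above all its wild-type libraries (59.8 to 63.3 CPM).

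Across all genes, ΔLEO1 cells in full serum showed changes in both directions. By edgeR's likelihood ratio test on the ERCC scale, 556 genes (4.20% of those tested) were called higher and 614 (4.64%) lower at an adjusted p under 0.05, which is 8.84% in all. The smallest log2 fold change among them was 1.26 for the higher and −1.29 for the lower genes, 312 higher and 410 lower genes changed by more than 2 on the log2 scale, and 98 and 144 by more than 4. In 538 of the higher and 574 of the lower genes the ERCC-scaled counts of the genotypes did not overlap, where the share over all tested genes was 23.7% and 6.94%. The median of all log2 fold changes was 0.35, with a middle range from −0.02 to 0.63, and 74.1% of the genes had a positive value. Gene counts per ERCC count were 126.1, 105.1 and 69.5 in wild type and 158.2, 116.5 and 105.4 in ΔLEO1 (100.2 ± 28.6 against 126.7 ± 27.8, SD, n = 3 each; exact two-sided permutation test, p = 0.4). The groups overlap, so this general shift was not larger than the spread between libraries, and whether the mix was added per amount of RNA or per cell is not given in the sources used here.

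With TMM scaling on the genes the median moved to 0.0038, and 2344 genes (17.7%) were called higher and 2880 (21.8%) lower. Of the ERCC-scale calls, 550 of 556 higher and all 614 lower genes were also called the same way with this scaling. Leaving out 1 library at a time gave 333 to 511 higher and 405 to 673 lower calls. The fewest higher calls came without ΔLEO1 library 4 (333) and without wild-type library 3 (365), and the fewest lower calls without wild-type library 1 (405). In all 6 of these fits 287 higher and 357 lower genes were called.

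**Figure D2:**
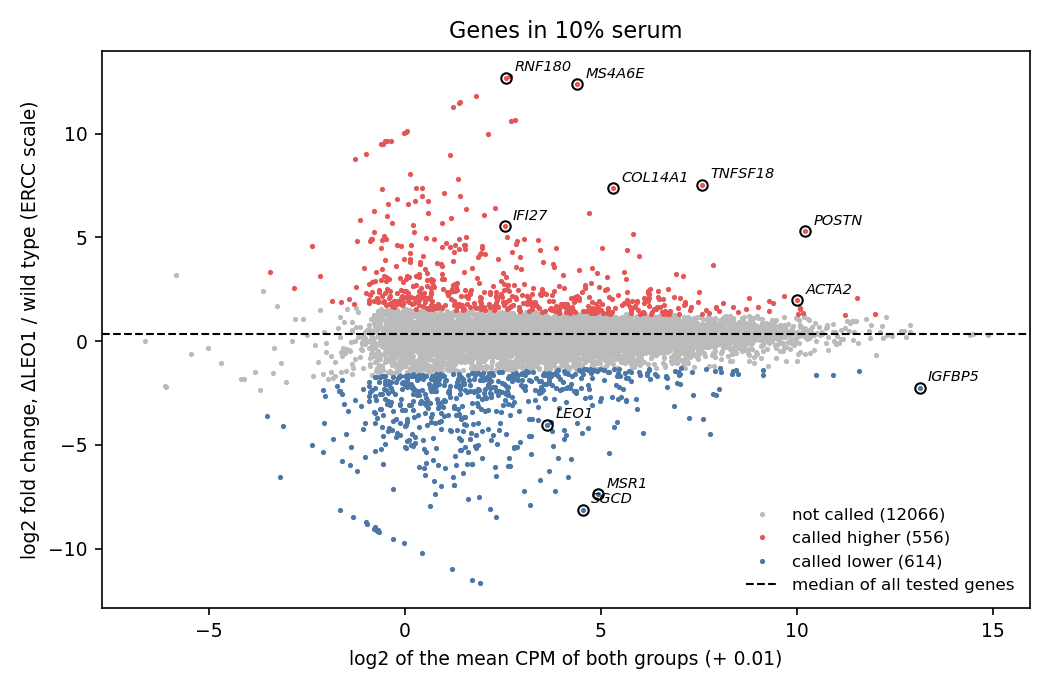
Log2 fold change between ΔLEO1 and wild type on the ERCC scale (vertical axis) against the log2 of the mean CPM of both groups (horizontal axis, 0.01 added) for the 13236 tested genes in 10% serum. The dashed line is the median of all genes (0.35); 556 genes called higher are red, 614 called lower are blue, and fitted values of genes absent from a group, such as RNF180 and MS4A6E, depend on a prior count and are no measured ratio.

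The largest decreases were in genes of varied function. Given here are the 12 called protein-coding genes with the largest negative values that reached a mean of 10 CPM in either genotype and whose ERCC-scaled counts did not overlap. SGCD, the delta-sarcoglycan of the dystrophin-associated complex, had 7.44, 6.33 and 1.39 ERCC-scaled counts in wild type and 0.0326, 0.0103 and 0.0142 in ΔLEO1. All ΔLEO1 libraries lay far below the lowest wild-type library, number 3 (log2 ratio −8.12, SE 0.65, adjusted p = 9.53e-32). GASK1B, a Golgi-associated protein, had 2.58, 2.13 and 0.974 ERCC-scaled counts in wild type. It had 3 or fewer counts in each ΔLEO1 library, so its level was at least 209.9-fold lower, with 3 counts set in each of these libraries. MSR1, a scavenger receptor best known from macrophages, had 8.32, 6.69 and 3.63 ERCC-scaled counts in wild type and 0.0285, 0.0591 and 0.0237 in ΔLEO1 (log2 ratio −7.36, adjusted p = 5.00e-29).

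SLIT3, a secreted ligand of ROBO receptors, had 6.26, 4.85 and 0.663 ERCC-scaled counts in wild type and 0.0571, 0.0489 and 0.0237 in ΔLEO1 (log2 ratio −6.52, SE 0.59, adjusted p = 5.68e-25). INHBB, the beta B subunit of activin and inhibin, had 3.57, 2.95 and 1.31 against 0.0408, 0.0489 and 0.0142 ERCC-scaled counts (log2 ratio −6.25, adjusted p = 1.03e-20). In both genes wild-type library 3 was the lowest of its group and still well above all ΔLEO1 libraries. FOXE1 and SIX2, transcription factors of development, fell by 6.71 and 5.99 on the log2 scale, and DAPK1, a death-associated protein kinase, fell by 6.0. The same group holds THNSL2, a threonine synthase-like gene (−7.24), RCAN2, a regulator of calcineurin (−5.66), SYNM, which encodes the intermediate filament protein synemin (−5.63), and PCDHGA12, a clustered protocadherin (−7.24). For PCDHGA12, 49.0% of the 58-base stretches of its transcripts also occur in other genes, so its count is uncertain. The 12 genes had adjusted p-values of at most 1.33e-17, stayed called with any library left out, and all 12 were called lower in 0.1% serum too.

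The largest increases included genes that were absent from wild-type cells. RNF180, a membrane-bound E3 ubiquitin ligase, had 0 counts in all wild-type libraries and 13.4, 13.3 and 8.96 CPM in the ΔLEO1 libraries. Its ERCC-scaled level was at least 195-fold higher, with 3 counts set in each wild-type library. MS4A6E, a membrane protein of the MS4A family, was at least 690.2-fold higher, RGS7BP, a binding partner of RGS proteins, at least 221-fold, and PCDH9, a protocadherin, at least 211-fold. RNF180 and RGS7BP are next to each other on chromosome 5 (chr5:64165844-64372869 and chr5:64506257-64612312).

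Other genes rose from a low but measurable level. TNFSF18, a ligand of the tumour necrosis factor family, had 0.315, 0.255 and 0.209 ERCC-scaled counts in wild type and 60.9, 46.4 and 37.2 in ΔLEO1 (log2 ratio 7.54, SE 0.59, adjusted p = 3.74e-33). POSTN, which encodes the matrix protein periostin, had 14.5, 8.0 and 0.399 against 402, 300.5 and 190.4. The wild-type libraries of POSTN differed widely among themselves but all lay below ΔLEO1 (log2 ratio 5.29, SE 0.52, adjusted p = 3.93e-21, and 4.73 to 6.15 without single libraries). CPA3, a carboxypeptidase known from mast cells, had 0.100, 0.0697 and 0.0886 against 7.24, 5.37 and 6.40 ERCC-scaled counts (log2 ratio 6.20, adjusted p = 4.80e-23). GDA, the enzyme guanine deaminase, had 0.408, 0.357 and 0.370 against 14.1, 11.4 and 14.9 (log2 ratio 5.15, adjusted p = 6.50e-19). PODXL, a sialomucin of the cell surface, rose by 4.94, and PSG6, a pregnancy-specific glycoprotein, by 5.04. Of the 58-base stretches of PSG6 transcripts, 13.2% also occur in other genes. PSG6 exceeded 1 CPM only in the 3 ΔLEO1 libraries of 10% serum, so it left the tested genes when any of these was left out. The other 11 genes were called in all 6 fits without a library. COL14A1 and IFI27 complete the group and are described with the collagens and the interferon-stimulated genes. Of these 12 genes, 11 were called higher in 0.1% serum as well, COL14A1 being the exception.

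**Figure D3:**
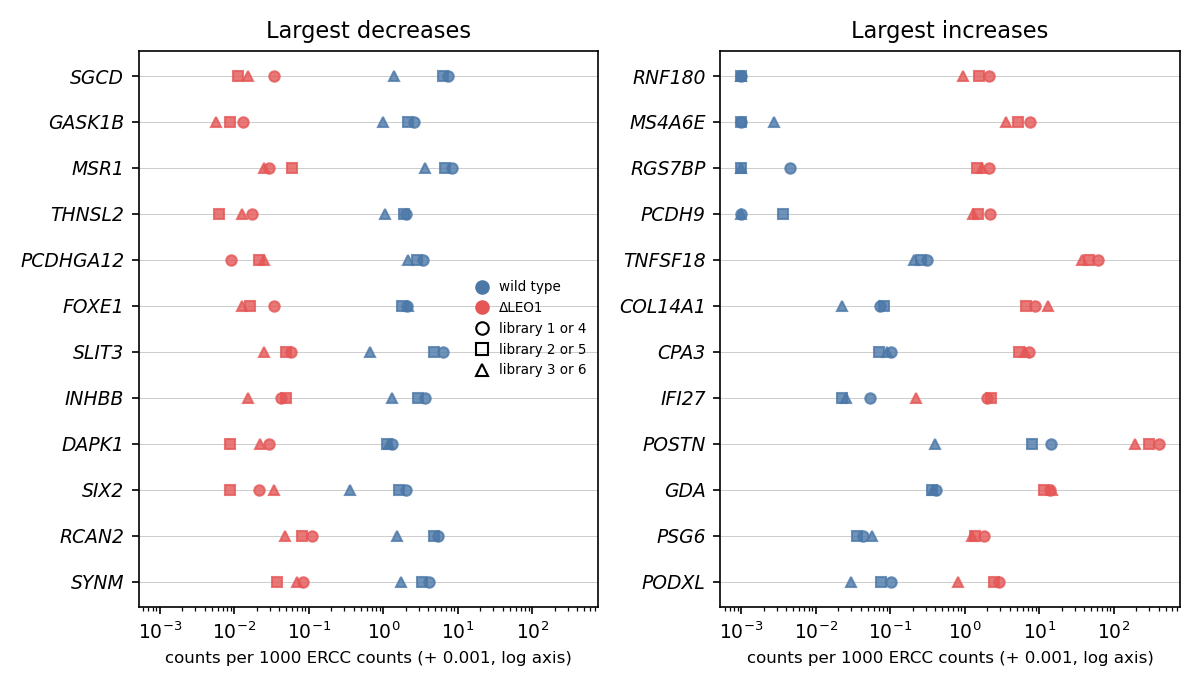
ERCC-scaled counts (counts per 1000 ERCC counts, 0.001 added, log axis) of the 12 genes with the largest decreases (left) and the 12 with the largest increases (right) in each wild-type (blue) and ΔLEO1 (red) library of 10% serum; circle, square and triangle are libraries 1 or 4, 2 or 5 and 3 or 6. The genotypes do not overlap in any of the 24 genes, which the choice of genes required, and the triangle is often the outermost point of its group.

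Interferon-stimulated genes, which cells switch on through STAT and IRF factors and which act against viruses, were higher as a group. Of 39 tested members of the list, 21 were called higher and none lower, against 4.20% and 4.64% of all genes, and the median log2 fold change was 1.65. Because the 42 gene lists were chosen with earlier results of these data known, the shares called in each list are a description. IFI27 had 0.0519, 0.0215 and 0.0248 ERCC-scaled counts in wild type and 1.96, 2.26 and 0.221 in ΔLEO1 (log2 ratio 5.53, SE 0.63, adjusted p = 2.14e-16). IFI6 had 5.15, 5.16 and 3.0 against 77.8, 74.9 and 14.3 (log2 ratio 3.65, SE 0.49, adjusted p = 1.00e-11). OAS1 and OAS2 encode sensors of double-stranded RNA. OAS1 had 0.131, 0.209 and 0.0478 ERCC-scaled counts in wild type and 3.27, 4.14 and 0.608 in ΔLEO1 (log2 ratio 4.38, adjusted p = 3.40e-13), and OAS2 had 0.723, 0.614 and 0.292 against 7.79, 9.90 and 1.35 (log2 ratio 3.55, adjusted p = 2.26e-10). In all 4 genes ΔLEO1 library 6 held far less than libraries 4 and 5 but more than every wild-type library. The other called members had log2 fold changes from 1.40 upwards and include the factor IRF7 and the genes MX1, MX2, ISG15 and BST2, which are named after their values were seen. Without libraries 3 and 6 the list had 20 higher calls, and the quasi-likelihood test gave 20. TMM scaling on the genes gave 23 higher and 2 lower, against 17.7% and 21.8% of all genes. With libraries 1 and 2, and 4 and 5, summed as 1 library each, 13 were called. In 0.1% serum 16 of the 21 were called higher as well. Among 17 genes of MHC class I and peptide loading, which interferon can also induce, only TAP2 passed (log2 ratio 1.61, adjusted p = 0.00950). Its call ended without library 3, 4 or 5, without libraries 3 and 6 together and with summed libraries, and 31.2% of the 58-base stretches of its transcripts also occur in other genes.

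The promoters of these genes were read from RefSeq (GRCh38.p14) as the 250 bases before the annotated start. The core motif of an interferon-stimulated response element (ISRE), searched on either strand, was found in 3.07% of the 27195 RefSeq promoters on chromosomes 1 to 22 and X, in 18 of the 30 tested list members with a promoter entry, and in 10 of the 14 called members with one. The 4 promoters below belong to the called members with a motif that have the smallest p. They are shown so that the motif can be seen in the promoters of genes that rose. Each is written 5′ to 3′ on the strand of the gene and ends at the base before the start, and capitals mark every match to the motif, some of which overlap. The regions are chr14:94110486-94110735 (plus strand) for IFI27, chr1:27672193-27672442 (minus strand) for IFI6, chr1:1013247-1013496 (plus strand) for ISG15 and chr19:17405631-17405880 (minus strand) for BST2.
IFI27: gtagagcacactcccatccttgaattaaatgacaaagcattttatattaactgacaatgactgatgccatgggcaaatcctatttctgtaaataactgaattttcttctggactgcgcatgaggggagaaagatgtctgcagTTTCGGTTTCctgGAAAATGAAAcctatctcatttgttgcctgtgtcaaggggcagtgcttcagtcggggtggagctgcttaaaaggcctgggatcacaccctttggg
IFI6: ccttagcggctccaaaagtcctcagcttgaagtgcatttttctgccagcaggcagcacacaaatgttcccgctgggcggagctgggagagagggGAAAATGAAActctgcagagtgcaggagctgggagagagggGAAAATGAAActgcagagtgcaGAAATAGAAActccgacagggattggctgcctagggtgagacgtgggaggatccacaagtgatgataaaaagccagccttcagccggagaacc
ISG15: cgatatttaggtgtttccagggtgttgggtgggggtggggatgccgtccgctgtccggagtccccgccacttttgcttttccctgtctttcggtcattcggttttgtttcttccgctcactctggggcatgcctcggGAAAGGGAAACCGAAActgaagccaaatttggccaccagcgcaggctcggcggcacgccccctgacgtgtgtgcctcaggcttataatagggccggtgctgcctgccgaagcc
BST2: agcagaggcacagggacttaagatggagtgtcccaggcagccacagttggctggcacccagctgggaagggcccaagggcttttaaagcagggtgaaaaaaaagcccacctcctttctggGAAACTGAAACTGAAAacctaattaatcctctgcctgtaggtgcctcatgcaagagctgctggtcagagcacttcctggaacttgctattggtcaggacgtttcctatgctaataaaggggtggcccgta
IFI6 holds 3 matches and the other 3 promoters hold 2 each, and in ISG15 and BST2 the 2 matches overlap. A match is a description of the sequence.

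More than the background share of the genes of cholesterol synthesis and uptake was called higher. Of 24 tested genes, 13 were called higher and none lower, against 4.20% and 4.64% of all genes, 23 lay above the median gene, and the median log2 fold change was 1.40. HMGCS1, which makes HMG-CoA at the start of the pathway, had 3.76, 3.04 and 1.63 ERCC-scaled counts in wild type and 22.5, 16.7 and 9.75 in ΔLEO1 (log2 ratio 2.54, SE 0.48, adjusted p = 3.72e-06). INSIG1, which holds SREBP in the endoplasmic reticulum when sterols are plentiful, had 3.74, 3.24 and 1.63 against 20.5, 15.2 and 10.6 (log2 ratio 2.43, SE 0.47, adjusted p = 1.06e-05). TM7SF2, a sterol reductase, had 0.187, 0.198 and 0.163 against 1.62, 1.12 and 0.923 (log2 ratio 2.74, adjusted p = 9.59e-06). In 22 of the 24 genes the ΔLEO1 libraries lay above all wild-type libraries, as in 23.7% of all tested genes. The sterol regulatory element, searched in the same promoter window as the ISRE, was found in 1 of 18 tested members with a promoter entry and in none of the 8 called ones, against 0.853% of the promoters of all tested genes, and no match says only that these letters are not in this window. Without libraries 3 and 6 the list had 7 higher calls, with 1 library left out 7 to 12 (7 without library 3, 7 without library 4 and 8 without library 2), with summed libraries 6 and by the quasi-likelihood test 12. With TMM scaling on the genes 22 were called higher and 1 lower, against 17.7% and 21.8% of all genes. In 0.1% serum 9 of the 13 were called higher as well.

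Targets of p53 were lower where they changed. Of 25 tested targets 8 were called lower and none higher, against 4.64% and 4.20% of all genes, and their median log2 fold change was −0.28. CDKN1A, which encodes the cyclin-dependent kinase inhibitor p21, had 26.7, 23.2 and 12.4 ERCC-scaled counts in wild type and 6.79, 5.35 and 3.51 in ΔLEO1. The groups did not overlap (log2 ratio −1.99, SE 0.46, adjusted p = 4.04e-04). SPATA18, a mitochondrial quality control gene, had 1.30, 1.17 and 0.558 against 0.00408, 0.00771 and 0.0190 (log2 ratio −6.49, adjusted p = 6.88e-19), DDB2, which recognises DNA damaged by ultraviolet light, was lower (log2 ratio −1.92, adjusted p = 0.00225), as was GDF15, a stress-induced cytokine (log2 ratio −1.81, adjusted p = 0.00858). Without libraries 3 and 6 the list had 3 lower calls, and with 1 library left out 2 to 8 (3 without libraries 1, 2 or 5 and 2 without library 6). TMM scaling on the genes gave 16 lower and 1 higher, against 21.8% and 17.7% of all genes. In 0.1% serum 5 of the 8 were called lower, and CDKN1A had a value of −0.93 there (adjusted p = 0.305).

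The cell cycle genes themselves did not pass the test. Among 11 CDK inhibitors and members of the RB family, CDKN1A fell and CDKN2B, which encodes p15, rose (log2 ratio 1.45, adjusted p = 0.0253), but the call of CDKN2B was kept in only 1 of the 6 fits without a library. Of 32 tested genes of DNA replication and 36 of the mitotic spindle, edgeR's likelihood ratio test called none, as did the quasi-likelihood test and DESeq2. At an unadjusted p under 0.05 there were 3 and 5, all higher. The medians, 0.58 and 0.65, lay above the 0.35 of all genes, and every spindle gene had a positive value, as had 74.1% of all tested genes. The wild-type libraries differ strongly here. CDK1, the mitotic kinase, had 4.76, 4.03 and 0.788 ERCC-scaled counts in wild type and 8.81, 7.38 and 3.46 in ΔLEO1, so the groups overlap, and the log2 fold change was 1.04 (adjusted p = 0.184). MCM10, a replication factor, had 1.33, 1.12 and 0.264 against 2.79, 2.29 and 0.909 (adjusted p = 0.157). In both genes library 3 lay below its group and library 6 below its own.

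Among the genes of the extracellular matrix that passed the test, more were lower than higher. Of 42 tested matrix glycoproteins and proteoglycans, 10 were called lower and 3 higher, against 4.64% and 4.20% of all genes. Their median log2 fold change was −0.35. EFEMP1, which encodes fibulin-3, had 59.0, 48.5 and 24.5 ERCC-scaled counts in wild type and 2.69, 1.81 and 1.52 in ΔLEO1 (log2 ratio −4.46, SE 0.51, adjusted p = 8.56e-16). MFAP5, a component of elastic microfibrils, had 6.19, 5.17 and 2.38 against 0.294, 0.152 and 0.206 (log2 ratio −4.40, adjusted p = 8.70e-14), and FMOD, the collagen-binding proteoglycan fibromodulin, was lower too (log2 ratio −3.69, adjusted p = 1.73e-06). The increase of POSTN, given above, goes the other way by more than any of these. Without libraries 3 and 6 the list had 6 lower and 2 higher calls, without library 1, 2 or 6 alone 5 lower and 2 higher and without library 5 alone 6 lower. TMM scaling on the genes gave 21 lower and 3 higher, against 21.8% and 17.7% of all genes.

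Of 26 tested collagen genes 7 were called lower and 2 higher, against 4.64% and 4.20% of all genes, with a median of 0.13. COL14A1, a collagen that associates with fibrils, had 0.0726, 0.0804 and 0.0213 ERCC-scaled counts in wild type and 8.65, 6.60 and 13.2 in ΔLEO1 (log2 ratio 7.38, SE 0.61, adjusted p = 1.95e-30). This was the largest change of the list. Without library 1 or 6 the list had 4 lower calls. COL15A1, of basement membrane zones, had 73.4, 59.2 and 12 against 14.8, 10.6 and 3.65, so that wild-type library 3 fell within the ΔLEO1 range (log2 ratio −2.31, adjusted p = 1.90e-05). COL8A2 fell by 3.08 and COL4A4 by 4.22 on the log2 scale. COL6A1, the first chain of collagen VI, had 301, 258 and 142 against 102, 74.2 and 50.9 ERCC-scaled counts (log2 ratio −1.63, adjusted p = 0.00450), and its call was kept in 4 of the 6 fits without a library. COL1A1 and COL1A2, the chains of collagen I, had 24253 to 33194 and 21154 to 22378 CPM in wild type and 26819 to 31573 and 20916 to 22454 CPM in ΔLEO1, which overlap.

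Among 30 matrix proteases and inhibitors 3 were called in each direction, where 4.20% of all genes were called higher and 4.64% lower. MMP1, the interstitial collagenase, had 23.9, 23.3 and 14.7 ERCC-scaled counts in wild type and 117, 116 and 30.6 in ΔLEO1 (log2 ratio 2.09, adjusted p = 1.26e-04). TIMP3, an inhibitor of metalloproteases bound to the matrix, had 157, 139 and 99.3 against 579.6, 449 and 653 (log2 ratio 2.09, adjusted p = 1.08e-04), and overlaps SYN3 on the opposite strand. MMP24, a membrane-bound metalloprotease, had 2.33, 1.82 and 1.53 against 0.261, 0.170 and 0.197 (log2 ratio −3.18, adjusted p = 1.74e-07), and SERPINF1, which encodes pigment epithelium-derived factor, had 2.57, 2.32 and 1.07 against 0.510, 0.360 and 0.216 (log2 ratio −2.46, adjusted p = 1.20e-05). Of 16 integrins, the receptors for this matrix, ITGB4 (−3.94), ITGB8 (−1.96) and ITGA4 were called lower and ITGB3 (2.2) and ITGA1 (1.67) higher. ITGA4 was named after its value was seen. Without library 1, 2 or 5 the integrins had 1 lower call, and without library 6 they had 1 higher call. Of the 58-base stretches of ITGB3 transcripts, 50.7% also occur in another annotated gene.

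Muscle-type actins rose. Of 23 contractile and actin genes 4 were called higher and 1 lower, against 4.20% and 4.64% of all genes, with a median of 0.46. ACTA2, the alpha actin that marks myofibroblasts, had 47.9, 36.7 and 57.0 ERCC-scaled counts in wild type and 162, 105 and 286 in ΔLEO1 (log2 ratio 1.97, SE 0.45, adjusted p = 3.47e-04). ACTG2 had 3.42, 2.99 and 3.37 against 30.1, 21.2 and 36.0 (log2 ratio 3.16, adjusted p = 4.45e-09), and ACTC1 had 0.277, 0.220 and 0.446 against 3.83, 2.50 and 14.6 (log2 ratio 4.47, adjusted p = 1.16e-14). In all 3 genes the ΔLEO1 library 6 was the highest, and without it the log2 fold change of ACTC1 was 3.35. The list had 2 higher calls without libraries 3 and 6, and ACTA2 then had 1.66 (adjusted p = 0.0519). TNS1, which encodes tensin 1 at focal adhesions, fell (log2 ratio −2.12, adjusted p = 1.84e-04). FAS and STAMBPL1 overlap ACTA2 on the opposite strand.

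Signalling genes were called in both directions. In the TGF-beta and BMP list 3 of 33 tested genes were called higher and 3 lower, where 4.20% and 4.64% of all genes were. Of the lower calls 1 was left without library 1, 2, 5 or 6, and of the higher calls 2 without library 2 or 6. TGFB2, a TGF-beta ligand, had 0.581, 0.544 and 0.551 ERCC-scaled counts in wild type and 11.1, 8.32 and 15.3 in ΔLEO1 (log2 ratio 4.37, SE 0.52, adjusted p = 1.04e-14), with 25.2% of its 58-base stretches shared with other genes. BMP4 rose by 2.04 and ID3, a target of BMP signalling, by 1.60 (adjusted p = 3.71e-04 and 0.00781), while INHBB fell as given above. In the Wnt list 5 of 31 tested genes were called lower and 1 higher, with 3 lower calls left without library 4. ROR1, a receptor of the Wnt5a class of ligands, had 0.570, 0.424 and 0.147 against 0.0530, 0.0283 and 0.0451 (log2 ratio −3.18, adjusted p = 1.25e-06), and ROR2, its relative, was at least 7.46-fold lower, with 3 counts set in each ΔLEO1 library. The factor TCF7 fell by 3.83 on the log2 scale. DKK1, a secreted inhibitor of Wnt signalling, had 41.9, 33.7 and 28.0 against 142, 107 and 122 ERCC-scaled counts and rose (log2 ratio 1.84, adjusted p = 9.79e-04).

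Of 34 growth factors, receptors and binding proteins 7 were called higher and 5 lower, against 4.20% and 4.64% of all genes. The higher calls fell to 2 without library 3, without library 4, without libraries 3 and 6 together and with summed libraries, to 3 without library 2 and to 4 without library 5. IGFBP5, a secreted binding protein of insulin-like growth factors, was among the most abundant transcripts and had 14808, 15361 and 15934 CPM in wild type and 2458, 2463 and 2838 CPM in ΔLEO1. On the ERCC scale these were 1867, 1614 and 1107 against 389, 287 and 299, and IGFBP5 fell (log2 ratio −2.23, SE 0.45, adjusted p = 2.75e-05). The receptor KIT was at least 15.6-fold lower on the same terms as ROR2, PDGFRL fell by 3.07 on the log2 scale, and the ligand PDGFB rose (log2 ratio 2.65, adjusted p = 8.18e-05). Among 18 genes induced by ERK, both feedback inhibitors and transcription factors, DUSP4 (−3.91), SPRY1 (−2.38) and EGR1 (−1.39) were called lower and DUSP5 (1.58) higher. The calls of EGR1 and DUSP5 were kept in 2 and 3 of the 6 fits without a library. In the Notch list the ligand JAG1 (log2 ratio 1.92, adjusted p = 8.73e-04) and the target HEY1 (log2 ratio 1.93, adjusted p = 0.00413) rose, of 12 tested. Without library 6 JAG1 had 1.30 (adjusted p = 0.131). The Notch list had 0 higher calls without libraries 3 and 6 together and 1 with summed libraries.

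In retinoic acid metabolism 3 of 15 tested genes were called higher and 4 lower, against 4.20% and 4.64% of all genes. ALDH1A1, which makes retinoic acid, had 0.899, 0.627 and 0.420 ERCC-scaled counts in wild type and 5.14, 3.41 and 10.3 in ΔLEO1 (log2 ratio 3.28, adjusted p = 5.80e-09). CYP26B1, which degrades it, had 0.0104, 0.0215 and 0.0106 against 0.257, 0.201 and 0.216 (log2 ratio 3.97, adjusted p = 2.46e-08). RDH10, which oxidises retinol, had 12, 9.42 and 9.68 against 1.86, 1.13 and 1.52 (log2 ratio −2.79, adjusted p = 4.37e-07), and DHRS3, which works in the reverse direction, had 4.77, 3.89 and 1.24 against 0.420, 0.339 and 0.555 (log2 ratio −2.91, adjusted p = 3.76e-07).

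Of the secreted immune mediators that passed the test, more were lower than higher. Of 19 cytokines, chemokines and related genes 6 were called lower and 2 higher, against 4.64% and 4.20% of all genes, with a median of −0.82. IL6 had 0.335, 0.400 and 8.0 ERCC-scaled counts in wild type and 0.192, 0.293 and 0.0902 in ΔLEO1, and CXCL8, which encodes interleukin 8, had 0.612, 0.520 and 16.4 against 0.212, 0.658 and 0.306. Their log2 fold changes of −3.93 and −3.89 rest on wild-type library 3 alone: without it they were −0.94 and −0.52 (adjusted p = 0.535 and 0.918), and DESeq2 gave both no adjusted p. ICAM1, an adhesion molecule for leukocytes, had 2.30, 2.29 and 7.85 against 0.648, 0.561 and 0.282 and was called with and without library 3 (−3.06, and −2.21 without it). CCL5, a chemokine that interferon also induces, had 0.0104, 0.0215 and 0.0213 against 0.575, 0.584 and 0.318 and rose (log2 ratio 4.74, adjusted p = 6.37e-12). The list had 2 lower calls and 1 higher without libraries 3 and 6, 2 lower calls without library 3 alone and 3 without library 6 alone.

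Of 13 tested complement genes 7 were called lower and none higher, against 4.64% and 4.20% of all genes. The median was −1.37, and 10 were lower with TMM scaling on the genes, against 21.8% of all genes. C3, the central component, had 3.10, 5.92 and 6.38 ERCC-scaled counts in wild type and 0.571, 1.26 and 0.271 in ΔLEO1 (log2 ratio −2.87, adjusted p = 1.87e-07). C5 had 0.930, 0.871 and 0.241 against 0.135, 0.126 and 0.0712 (log2 ratio −2.62, adjusted p = 4.12e-05). CFI, the protease that inactivates C3b, was lower (log2 ratio −4.04, adjusted p = 4.61e-08), with 30.2% of its 58-base stretches shared with other genes. There were 3 lower calls in the list without libraries 3 and 6, 3 without library 1 or 2, 4 without library 6, by the quasi-likelihood test 5, and 2 of the 7 were called lower in 0.1% serum.

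Transcription factors that record where in the body a fibroblast comes from changed in both directions. Of 42 positional transcription factors 7 were called lower and 4 higher, against 4.64% and 4.20% of all genes, and without library 3 there were 2 higher calls. TFAP2B was at least 39.4-fold higher, with 3 counts set in each wild-type library. MSX2 had 0.353, 0.295 and 0.179 against 0.0326, 0.0334 and 0.0237 ERCC-scaled counts (log2 ratio −3.20, adjusted p = 2.82e-06) and HAND2 0.159, 0.134 and 0.0461 against 0.00408, 0.0103 and 0.0142 (log2 ratio −3.44, adjusted p = 8.97e-06). Among 19 tested HOX genes edgeR's likelihood ratio test, the quasi-likelihood test and DESeq2 called none. At an unadjusted p under 0.05 4 were higher and 1 lower. HOXA5 had a value of 1.28 (adjusted p = 0.125) and HOXA6 of 1.47 (adjusted p = 0.0825).

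Axon guidance genes had 6 lower and 4 higher calls among 41 tested, against 4.64% and 4.20% of all genes. Leaving out library 2, 3, 4 or 5 left 2 higher calls, and leaving out library 1, 5 or 6 left 4 lower ones. Besides the ligand SLIT3, its receptor ROBO2 was lower, with 10.7, 9.24 and 4.84 ERCC-scaled counts in wild type and 1.69, 1.28 and 0.933 in ΔLEO1 (log2 ratio −2.67, adjusted p = 1.05e-06). The ephrin EFNB3 had 0.930, 0.745 and 0.597 against 0.0163, 0.0129 and 0.0166 (log2 ratio −5.62, adjusted p = 1.48e-15), and the semaphorin SEMA3F 0.581, 0.633 and 0.374 against 0.0204, 0.0360 and 0.0214 (log2 ratio −4.32, adjusted p = 1.42e-10). Of 11 cadherins, CDH9 was absent from wild type and at least 23.6-fold higher, FAT3 rose by 6.06 and CDH3 by 2.55, and CDH18 fell by 3.29. In the gamma protocadherin cluster 3 of 17 tested genes were called in each direction.

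The general machinery of transcription and chromatin showed no call. Among 35 elongation factors other than PAF1C subunits and 28 genes of H3K9 methylation and heterochromatin, edgeR's likelihood ratio test, the quasi-likelihood test and DESeq2 called none. At an unadjusted p under 0.05 there was 1 higher elongation factor, and 1 higher and 1 lower heterochromatin gene. ELOA, which encodes elongin A, had 7.94, 6.46 and 4.38 ERCC-scaled counts in wild type and 17.3, 12.6 and 10.8 in ΔLEO1 (1.11, adjusted p = 0.125). CCNT2, a cyclin of the elongation kinase P-TEFb, had a value of 0.75 (adjusted p = 0.426). TASOR, a subunit of the HUSH silencing complex, had 12.9, 10.4 and 6.30 against 5.82, 4.59 and 4.15 (−1.03, adjusted p = 0.184), and TRIM28, the corepressor of KRAB zinc finger proteins, had 0.89 (adjusted p = 0.273). After TMM scaling on the genes, 6 elongation factors were called higher and 1 lower, and 5 heterochromatin genes in each direction, TASOR among the lower ones (−1.35). This scaling called 17.7% of all genes higher and 21.8% lower, so these counts are no result about the lists.

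Transcripts of the respiratory chain had positive values without exception, as had all 49 cytosolic ribosomal protein genes and 74.1% of all tested genes. The median was 0.98 for the 13 mitochondrially encoded genes and 0.58 for the 41 tested nuclear-encoded ones, against 0.35 for all genes. On the ERCC scale the likelihood ratio and quasi-likelihood tests called none of either kind, and DESeq2 called 2 of the first, while an unadjusted p under 0.05 held for 9 and 4, all higher. After TMM scaling on the genes, 9 and 13 were called higher and none lower, against 17.7% and 21.8% of all genes. MT-ND2 had 101, 88.8 and 55.4 ERCC-scaled counts in wild type and 209.7, 179 and 171 in ΔLEO1 (1.19, adjusted p = 0.0749), with 40.7% of its 58-base stretches found elsewhere. SDHB, a subunit of complex II, had 1.09 (adjusted p = 0.146). For 49 cytosolic ribosomal protein genes the median was 0.51, and by edgeR's likelihood ratio test none was called or had an unadjusted p under 0.05, nor did the quasi-likelihood test or DESeq2 call any.

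Smaller lists held single changes. Where 4.20% of all genes were called higher and 4.64% lower, so few calls do not describe a list as a whole. Of 24 targets of ATF4, which responds to amino acid shortage, VLDLR (−4.29), GDF15 and ALDH1L2 (−1.48) were called lower, and 1 of these calls was left without library 2, 5 or 6. Of 29 glycolysis and hypoxia genes the carbonic anhydrases CA12 (−4.31) and CA9 (−2.97) were lower and ANKRD37 (2.23) higher. Of 21 genes of NRF2 and metallothioneins AKR1C1 (1.45) and FTL, the ferritin light chain (1.26), passed with adjusted p-values of 0.0425 and 0.0485, and neither was called by the quasi-likelihood test or without libraries 3 and 6. Among 15 imprinted genes MEST had 12.1, 9.59 and 2.95 ERCC-scaled counts in wild type and 0.758, 0.499 and 0.133 in ΔLEO1 (log2 ratio −4.15, adjusted p = 1.52e-13), SGCE was lower (−1.47) and PHLDA2 higher (1.64). The only cancer-testis gene that was tested, MAGEC2, fell (log2 ratio −1.76, adjusted p = 0.00950), but it was called in only 2 of the 6 fits without a library, without libraries 3 or 4, and neither without libraries 3 and 6 together nor with summed libraries. In 0.1% serum it was called lower (−2.24, adjusted p = 5.36e-04).

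**Figure D4:**
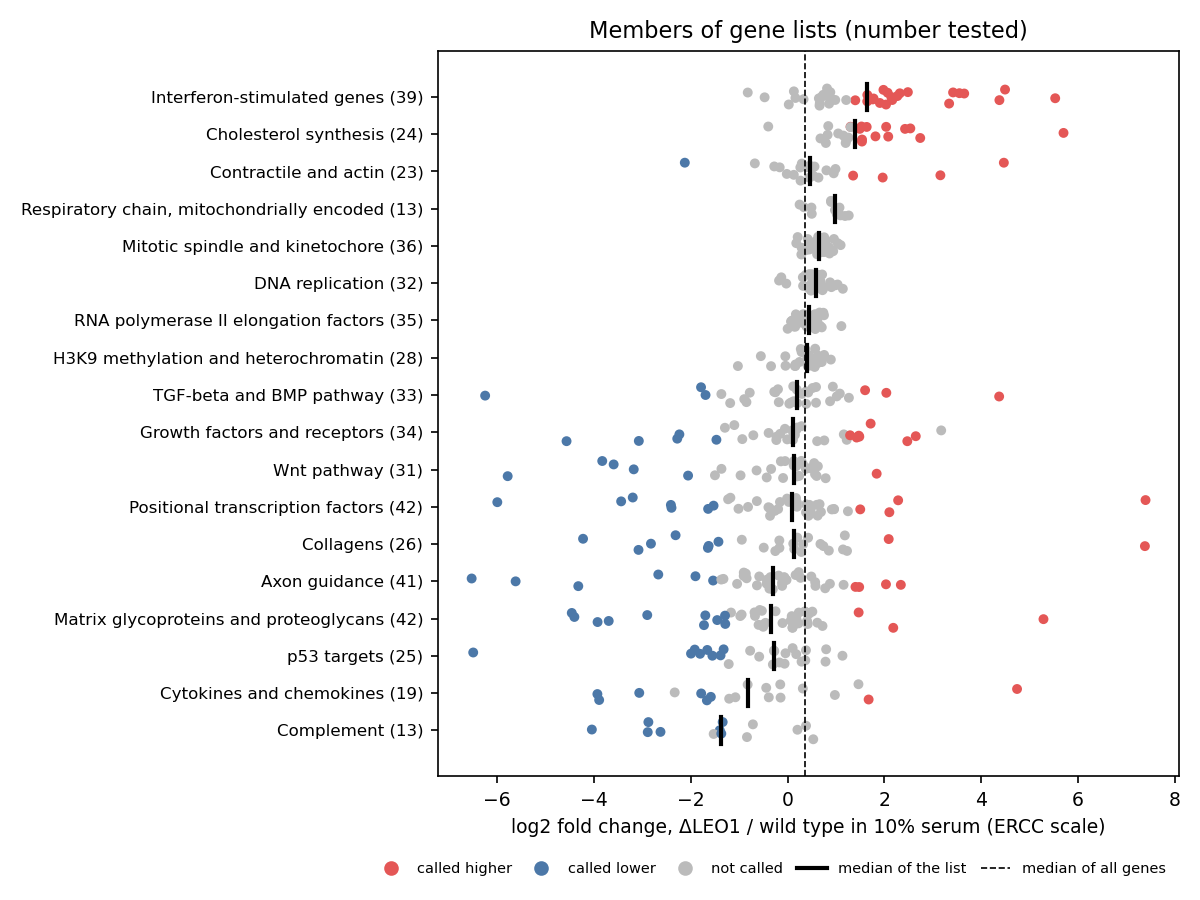
Log2 fold change between ΔLEO1 and wild type in 10% serum on the ERCC scale (horizontal axis) for each tested member of 18 gene lists, with the number tested in brackets; red members were called higher, blue lower and grey not called. Black bars give each list's median and the dashed line the median of all genes (0.35); the median is 1.65 for interferon-stimulated genes, 1.40 for cholesterol synthesis and −1.37 for complement.

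Some genes were present in only 1 genotype. In 41 called genes, 35 of them protein-coding, each ΔLEO1 library had 3 or fewer counts while wild type had a mean of at least 1 CPM. In 28 of these, each ΔLEO1 library of 0.1% serum had 3 or fewer counts as well. The reverse held for 38 genes, 25 of them protein-coding, and in 34 of these the wild-type libraries of 0.1% serum also had 3 or fewer counts. Such genes passed the filter through the genotype that expresses them, so they had to differ, and the counts are a description. Among them were neighbours: MS4A4A and MS4A6E on chromosome 11 were both silent in wild type, and ZNF667 and its antisense RNA ZNF667-AS1 on chromosome 19 were both silent in ΔLEO1. These 4 were named after their values were seen. Of 6 tested PSG genes on chromosome 19, 5 were called higher, against 4.20% of all genes. At least PSG6 among them passed the filter only through the 3 ΔLEO1 libraries of 10% serum, so this count is a description too.

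The share of called genes is given next by gene type. Of 11882 protein-coding genes 8.17% were called in either direction, of 341 lincRNAs 24.3% and of 383 antisense RNAs 14.9%. Among the lincRNAs 64 were called higher and 19 lower, and among the antisense RNAs 37 and 20. Genes found in only 1 genotype could pass the filter through it, such as LINC00355, with 0 counts in each wild-type library. The part of such genes in these shares was not tested. Counts of antisense RNAs can hold reads of the gene on the other strand. By the span of protein-coding genes, the median log2 fold change was 0.39 for genes spanning up to 10 kb, 0.42 for 10 to 30 kb, 0.36 for 30 to 100 kb, 0.23 for 100 to 300 kb and 0.017 for the 469 genes over 300 kb. In that last class 8.74% were called higher and 13.4% lower. Of the tested genes with a RefSeq promoter, 81.4% had a promoter with an observed to expected CpG ratio over 0.6, against 52.6% of the higher and 64.0% of the lower genes.

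A stretch of chromosome 4, picked out after values along the genome were seen, stood below the rest. The 262 tested genes from position 80183879 to 189963204 had a median log2 fold change 0.36 below the median of all genes, and 72.5% of them lay under it. In 0.1% serum the same stretch was 0.44 below. The 208 genes nearer the start of the chromosome were 0.031 below in 10% serum. GASK1B, SPRY1 and HAND2 lie in this stretch. Outside chromosome 4, the lowest of the 240 windows of 10 Mb with 20 or more tested genes was chr3:50000001-60000000 (79 genes, 0.37 below), and the highest was chr19:20000001-30000000 (34 genes, 0.57 above, with 7 called higher and none lower). On chromosome 19 as a whole the 227 tested genes whose symbol begins with ZNF had a median of 0.65. Of these, 14 were called higher and 5 lower, against 4.20% and 4.64% of all genes. They are chosen by symbol only, and the antisense RNA ZNF667-AS1 is among the lower ones.

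Markers of fibroblasts were present in both genotypes, and many defining markers of other cell types were at or near 0. All 16 fibroblast markers were tested, and their summed level was 73845 to 101705 CPM in wild type and 86078 to 99483 CPM in ΔLEO1. Most of this sum came from COL1A1, COL1A2 and FN1. Of the 16, COL6A1 was called lower and 12 lay below the median gene. After TMM scaling on the genes, 6 were called lower and 2 higher, against 21.8% and 17.7% of all genes. The endothelial markers summed to 2.04 to 3.67 CPM in wild type and 0.485 to 0.670 CPM in ΔLEO1, of which TEK was the only tested gene (log2 ratio −4.63, adjusted p = 5.71e-10). Of 8 blood cell markers PTPRC was called higher, from 0.274, 0.408 and 0.204 CPM to 5.95, 5.94 and 1.37 CPM, while CD3E, LYZ and HBB had 3 or fewer counts in each of the 6 libraries, and the sum was 2.01 to 2.33 against 3.17 to 8.33 CPM. Of the adipocyte markers ADIPOQ, LEP and LPL had 0 counts in all 6 libraries and FABP4 had 0.165, 0.102 and 0.179 CPM in wild type and 9.90, 9.47 and 9.68 CPM in ΔLEO1 (log2 ratio 6.41, adjusted p = 3.88e-19). Of the epithelial markers 2 were tested. KRT18, which fibroblast lines also express, rose (log2 ratio 1.95, adjusted p = 4.04e-04), while EPCAM, KRT5, TP63 and ESRP1 had 3 or fewer counts in each of the 6. CDH1, which was not tested, had 0.219, 0.255 and 0.332 CPM in wild type and 1.03, 0.839 and 1.42 CPM in ΔLEO1. GRHL2, not tested either, had 0 CPM in each wild-type library and 0.180, 0.177 and 0.225 CPM in ΔLEO1. Epithelial markers summed to 318 to 462 CPM in wild type and 841 to 1141 CPM in ΔLEO1 and held mostly KRT18. KRT8, its usual keratin partner, had 53.5, 54.7 and 63.0 CPM against 23.2, 23.1 and 27.0 CPM, with a log2 ratio of −0.87 on the ERCC scale that did not pass the test (adjusted p = 0.314) and a call as lower after TMM scaling on the genes (−1.23). The melanocyte and Schwann cell markers summed to 1.66 to 2.42 CPM in wild type and 0.540 to 1.34 CPM in ΔLEO1, and the defining marker SOX10 had 0 counts. The sum of the smooth muscle markers was 294 to 479 CPM in wild type and 412 to 767 CPM in ΔLEO1, and ACTG2 was the 1 called gene of this list. Fewer cells that express a gene and less of its RNA per cell cannot be told apart in these bulk samples, and the part of these markers in the results above was not tested.

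The genotypes were also compared in 0.1% serum, in 6 libraries from the same clone and wild-type line. These libraries entered the calls in 10% serum through the filter and the shared estimate of the spread. The values in 0.1% serum are therefore no independent test. Of the 556 higher genes, 551 had a positive value there, as had 73.6% of all tested genes. Called higher there were 370 of them (66.5%), where 3.85% of all tested genes were. Of the 614 lower genes, 591 had a negative value, as had 26.4% of all tested genes, and 387 (63.0%) were called lower, against 3.59% of all genes. In either direction 7.43% of all genes were called there. A single gene, TENM4, was called in opposite directions. The median log2 fold change of the higher genes was 2.12 in 10% serum and 1.92 in 0.1% serum, and that of the lower genes −2.42 and −1.88. The difference between the sera passed its own test, the interaction of genotype and serum, in 29 of all genes (0.219%; 0.136% with a more positive and 0.0831% with a more negative effect in 0.1% serum), among them 7 of the higher and 15 of the lower genes. LEO1 itself had −4.32 in 0.1% serum. COL14A1 was not called there: wild-type cells in 0.1% serum had 87.4, 63.1 and 55.3 CPM and ΔLEO1 cells 116, 104 and 80.5 CPM, which overlap.

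**Figure D5:**
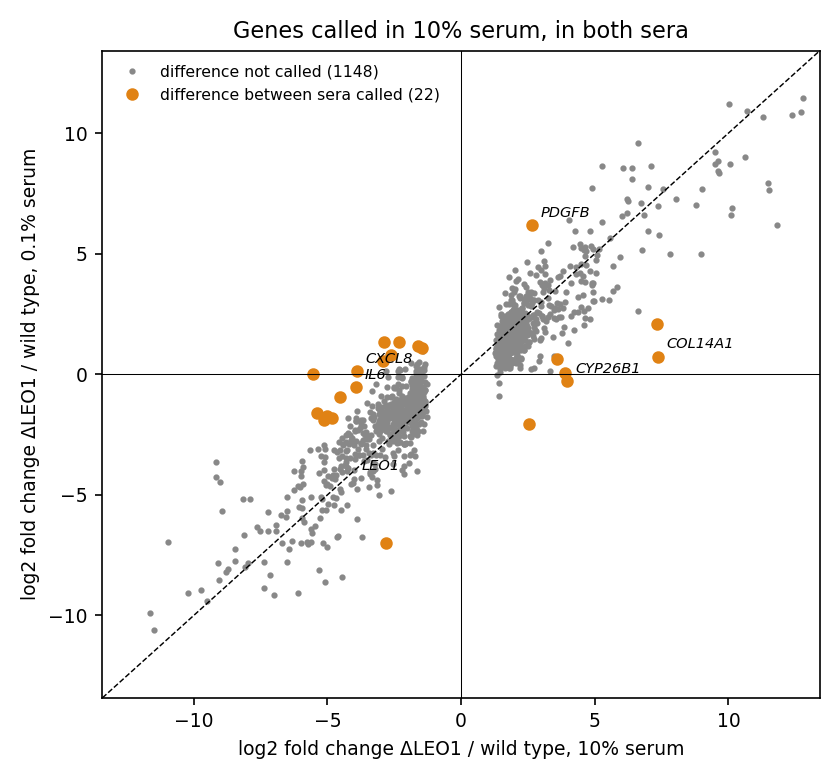
Log2 fold change between ΔLEO1 and wild type in 0.1% serum (vertical axis) against that in 10% serum (horizontal axis), both on the ERCC scale, for the 1170 genes called in 10% serum; the dashed line marks equal values and the 22 genes whose difference between the sera was called are orange. Of these genes 97.6% have the same sign in both sera, LEO1 among them, while COL14A1, CYP26B1, CXCL8 and IL6 lie near 0 in 0.1% serum. Among all tested genes 73.6% have a positive and 26.4% a negative value in 0.1% serum.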

How the data were processed

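The authors sequenced stranded poly(A) libraries with ERCC RNA added, demultiplexed them with bcl2fastq 2.20.0.422, aligned them with STAR to GRCh38 (2.7.10a per the submitters' processing notes, while the study's methods give another release) and counted them with featureCounts 1.5.1, and deposited raw counts per gene and per ERCC transcript. The strand setting and annotation release are not given in the sources used here. Groups were taken from the sample labels, and no per-sample column was left unused (0). Of 60671 genes, those above 1 CPM in at least 3 libraries were tested with edgeR 4.0.16 (R 4.3.3) by a two-sided likelihood ratio test over all 12 libraries in 4 groups, with the ERCC total times its TMM factor as library size and a Benjamini-Hochberg adjusted p under 0.05 as threshold. The quasi-likelihood test and DESeq2 1.42.0 were alternatives, beside other scalings, filters and left-out libraries. In simulated counts with 200 genes changed 8-fold among 13236, the likelihood ratio test recovered 200 with 10 false calls. The simulated libraries were drawn independently and only well-counted genes were changed. It therefore gives no error rate for smaller changes, low counts or libraries that stand apart. Named genes were LEO1 and the other PAF1C subunits, the 12 largest changes in each direction, and 4 called members of each list with the smallest p (2 where none was called), and a few genes that this rule names are not reported here. The members and the 42 gene lists were chosen with earlier results of these data known. Gene names and positions came from the reference tables supplied with the data (GRCh38), promoters from RefSeq GRCh38.p14. Genes of chromosome Y and XIST were left out. Counting precision covers counting error only.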

Additional observations from a re-analysis of the deposited data

Results flagged for a closer look

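In 5 named genes the effect of the genotype differed between the sera by the interaction test over all genes, which called 0.219% of them. The difference, 0.1% serum minus 10% serum on the log2 scale, was −6.65 for COL14A1 (SE 0.72, adjusted p = 1.94e-16). In wild-type cells COL14A1 had 0.576, 0.766 and 0.306 CPM in 10% serum and 87.4, 63.1 and 55.3 CPM in 0.1% serum, whereas ΔLEO1 cells had 54.7, 56.7 and 125 CPM and 116, 104 and 80.5 CPM. CYP26B1 differed by −4.26 (adjusted p = 3.55e-04), with 2.38, 2.67 and 1.88 CPM in wild type and 1.58, 0.861 and 1.93 CPM in ΔLEO1 in 0.1% serum. PDGFB differed by 3.53 (adjusted p = 0.0376), with a log2 ratio of 2.65 in 10% serum and 6.18 in 0.1% serum. CXCL8 and IL6 differed by 4.02 and 3.38 (adjusted p = 3.47e-05 and 0.00453). Both of these rest on wild-type library 3 in 10% serum, which held 236 and 115 CPM where the other wild-type libraries held at most 4.95 and 3.80 CPM, and its part in the difference was not tested beyond the fits without it.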

How the results depend on the processing

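Relative to 556 higher and 614 lower calls, scaling by TMM on the genes gave 2344 and 2880, DESeq2 size factors on the genes 2418 and 2814, and, chosen after seeing the data, TMM with the quasi-likelihood test 2371 and 2834 and TMM without libraries 3 and 6 1945 and 2631. With no filter 1115 higher and 803 lower genes were called, with filterByExpr 870 and 782 and with the 6 libraries of 10% serum alone 959 and 696, so that in these 3 settings higher calls outnumbered lower ones. Without libraries 3 and 6 there were 289 and 457. With the 2 lowest-numbered libraries per group added up as 1 library, 238 and 315 were called. Leaving out 1 library gave 333 to 511 higher and 405 to 673 lower calls. The share of called genes with the same sign in 0.1% serum was 97.6% and became 94.4% with TMM, 94.3% with DESeq2 size factors, 94.2% with TMM and the quasi-likelihood test and 94.5% with TMM without libraries 3 and 6. Where the construction of an alternative does not show the cause of a shift, the cause was not tested. LEO1 was called lower in every alternative run. No named gene reversed its direction. The quasi-likelihood test ended the call of 2 of them, DESeq2 of 5, leaving out 1 library of 5 to 14, leaving out libraries 3 and 6 together of 18, and adding up libraries as above of 17. No paired analysis was possible because the groups share no replicate numbers. With 3 libraries a group and 1 clone, the smallest called log2 ratios were 1.26 and −1.29 on the ERCC scale, and no smaller change passed the test.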
